A study of Mus musculus with 29 samples.

Results

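The genes described here are 5 subunits of the GABA-A receptor and the 2 transporters that set the chloride gradient the receptor uses. They were chosen by symbol, as Gabra2, Gabra3, Gabra5, Gabrb2, Gabrd, Slc12a5 and Slc12a2, and all 7 were found among the 48709 gene identifiers of the count tables. RNA-seq was done in 29 libraries of 3 experiments in mice, in which the microRNA miR-99b-5p was inhibited with a locked nucleic acid oligonucleotide (anti-miR-99b) or a control oligonucleotide of scrambled sequence (sc-control) was given. In the PFC experiment, lipid nanoparticles were injected on both sides into the prefrontal cortex of male C57BL/6J mice aged 3 months, carrying anti-miR-99b in 3 mice and sc-control in 3, and the cortex of 1 side was taken 5 days later, with 1 library per mouse. In the co-culture experiment, microglia of CD1 mice, isolated at postnatal day 1, received anti-miR-99b in 7 cases and sc-control in 8 before they were placed on cortical neurons of CD1 embryos (embryonic day 17.5), and the RNA of all cells together was sequenced. Microglia cultured alone (CD1, postnatal day 1, 4 libraries of each group) served as the third experiment. The injection into the cortex was not directed at 1 cell type, whereas in the co-culture only the microglia had been treated. Nothing in the sources used here says that the libraries of the cultures came from separate cultures, so p-values there measure the spread between these libraries, which may be technical.

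GABA-A receptors are channels of 5 subunits that let chloride through when GABA binds. The alpha subunit sets where a receptor sits and how it answers GABA, a beta subunit takes part in the GABA binding site, and a gamma or a delta subunit completes most receptors, the delta subunit being typical of receptors outside the synapse. KCC2 (Slc12a5) carries chloride out of neurons and NKCC1 (Slc12a2) carries it in, so their balance bears on whether GABA inhibits a neuron, and KCC2 is known to rise in the maturing cortex.

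The inhibitor is directed against the mature miR-99b-5p (chr17:17830194-17830215 of GRCm38.p6, plus strand, RefSeq), printed because its seed, bases 2 to 8 in capitals, decides which 3' untranslated regions it can pair with.
mmu-miR-99b-5p: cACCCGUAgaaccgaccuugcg
The match to the whole seed, TACGGGT, was searched on the transcribed strand of the longest annotated 3' untranslated region of each gene and occurs in 1.21% of 20971 genes, and the shorter ACGGGT, which lies within it, in 6.18%. None of the 7 genes holds either motif, in regions of 421 (Gabrd) to 4205 bases (Gabra2). Absence of these letters says nothing of other ways of pairing.

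By position in GRCm38 (GENCODE M21), Gabra2 (chr5:70957597-71095849, minus strand), Gabra3 (chrX:72432681-72656848, minus), Gabra5 (chr7:57407672-57510059, minus), Gabrb2 (chr11:42419757-42629028, plus), Gabrd (chr4:155384980-155398112, minus), Slc12a5 (chr2:164960802-164999731, plus) and Slc12a2 (chr18:57878678-57946821, plus) lie on 7 chromosomes. Gabra5 shares exonic sequence with an antisense gene, Gm9962, and since the strand setting of the counting is not given, the reads of the pair cannot be told apart. The PFC libraries held 24482309 to 36475236 counted reads and those of the co-culture 23269839 to 37901110. The 15 neuron marker genes were present in all libraries of both (summed 12727 to 14226.7 CPM, counts scaled to the library total, in the PFC and 10187.9 to 10441.1 CPM in the co-culture). The 15 microglia markers summed to 728.4 to 1098 CPM in the PFC, 204.3 to 283.4 CPM in the co-culture and 18889.8 to 20054.3 CPM in microglia cultured alone.

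The subunit make-up of the receptor family differed between adult cortex and young neurons in culture. It was expressed as the share of each of the 19 subunit genes in their summed counts per kb of exon, within each library, which needs no scaling between libraries. In sc-control PFC, Gabra3 held 17.5% ± 0.639 (SD, n = 3) of the family, the highest share of the 5 subunits described here. In the sc-control co-culture the alpha subunits with the highest mean shares were Gabra2, at 17.8% ± 0.192 (SD, n = 8), and Gabra5, at 17.7% ± 0.313. Gabra2 lay at 2.44% to 2.72% in the 3 sc-control PFC libraries and at 17.4% to 17.998% in the 8 of the co-culture. Gabra5, the alpha subunit of many receptors outside the synapse, went from 7.95% to 8.61% in the PFC to 17.3% to 18.2% in the co-culture. Gabra3 lay the other way, at 16.7% to 17.9% in the PFC and 8.18% to 8.90% in the co-culture. Gabrd, the delta subunit, lay at 7.96% to 10.3% in the PFC and 0.900% to 1.19% in the co-culture. Gabrb2, a beta subunit of many synaptic receptors, was the least different, with 5.82% to 7.05% against 4.89% to 5.16%. For each of the 5 subunits the sc-control libraries of the PFC and the co-culture did not overlap. The share of all genes that separate in this way was not counted, so the separation cannot be called particular to these subunits. Together the 5 held 41.4% to 46.2% of the family in the PFC and 49.7% to 50.7% in the co-culture. Strain, age and tissue or culture differ together between the experiments and cannot be told apart, and no test was made of these shares. The labels give batch 1 throughout, and whether the sequencing run differs too is not known. The order of shares depends on the length used: per kb of coding sequence Gabra3 held 11.4%, and Gabrd held 5.37% and moved from the fourth to the eighth place in the PFC. The direction of the difference between PFC and co-culture was the same with either length for each of the 5 subunits.

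**Figure D1:**
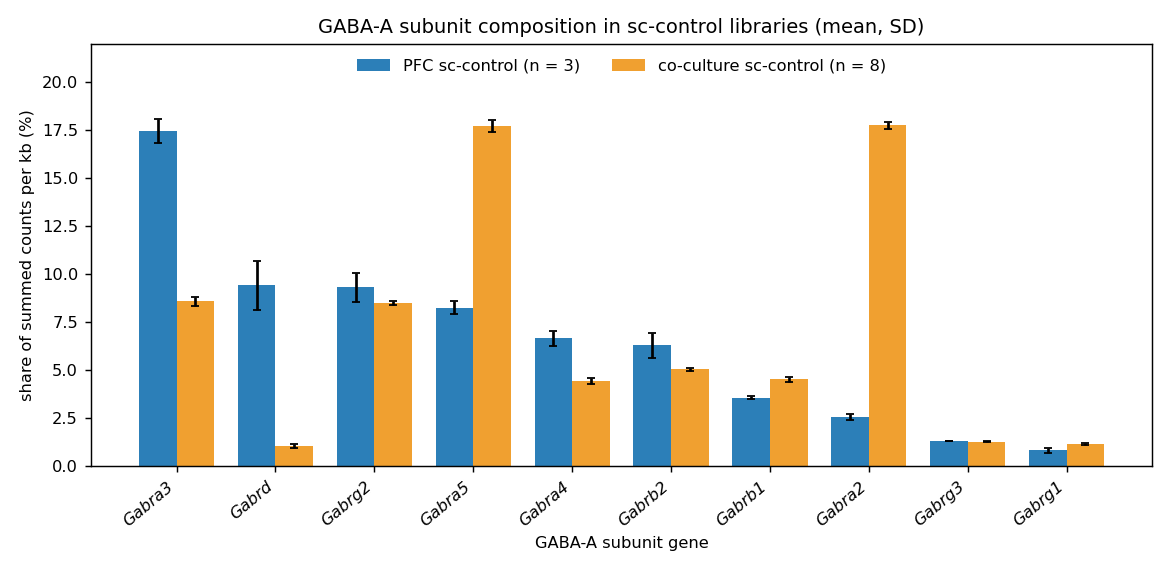
Share of each GABA-A subunit gene (x axis, 10 of the genes, the 5 described and 5 others) in the summed counts per kb of exon of the family (y axis, percent) as mean and SD of the sc-control libraries of the PFC (n = 3) and the co-culture (n = 8). Gabra2 stands at 2.56% in the PFC and 17.8% in the co-culture, and Gabrd at 9.42% and 1.07%.

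On the scale of CPM per kb of exon (RPKM), where levels of different genes can be set side by side, Slc12a5 was the highest of the 7 genes in sc-control PFC, at 106.2 ± 5.62 RPKM (SD, n = 3). It was followed by Gabra3 (49.0 ± 1.86), Gabrd (26.4 ± 2.84), Gabra5 (23.2 ± 0.252), Gabrb2 (17.7 ± 1.09), Gabra2 (7.19 ± 0.690) and Slc12a2 (7.11 ± 0.669). Gabrd and Gabra5 overlapped in their libraries (23.1 to 28.5 and 22.9 to 23.4 RPKM), as did Gabra2 and Slc12a2 (6.51 to 7.89 and 6.62 to 7.87 RPKM), so neither pair has a firm order. In the sc-control co-culture Gabra2 (50.7 ± 1.61 RPKM, n = 8) and Gabra5 (50.6 ± 1.32) led and overlapped, followed by Slc12a5 (45.7 ± 1.43), Gabra3 (24.5 ± 1.06), Gabrb2 (14.5 ± 0.432), Slc12a2 (6.18 ± 0.236) and Gabrd (3.04 ± 0.259). The tables were scaled separately, so a ratio of RPKM between them is a description. It was 7.06 for Gabra2, 2.18 for Gabra5 and 0.115 for Gabrd, co-culture over PFC, while Slc12a5 was 2.33-fold higher in the PFC and Slc12a2 stood at 0.869 of its PFC level. In bulk RNA, fewer cells of a type and less RNA per cell cannot be told apart.

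Microglia cultured alone held little of the receptor. Gabra2 lay at 1.74 ± 0.149 CPM (SD, n = 4, sc-control), Gabra3 at 1.63 ± 0.193, Gabrb2 at 0.864 ± 0.170, Gabra5 at 0.555 ± 0.101 and Slc12a5 at 1.58 ± 0.315, and Gabrd had 0 to 3 reads per library, below the level needed for a test. Slc12a2 was the exception, at 116.1 ± 6.36 CPM in microglia with sc-control and 112.1 ± 1.83 with anti-miR-99b, against 67.5 ± 2.58 in the sc-control co-culture, which also holds neurons and glia. The part that microglia had in the Slc12a2 reads of the co-culture was not tested.

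The comparison of anti-miR-99b with sc-control asked whether the inhibitor alters these genes in the cortex, or in neurons beside treated microglia. No member passed the threshold in any of the 3 experiments (edgeR quasi-likelihood test, Benjamini-Hochberg adjusted over all genes). The background of calls was 0.0864% of 17364 genes in the PFC (15 higher, 0 lower, adjusted p-value under 0.1 and log2FC beyond 0.2), 1.4% of 16193 in the co-culture (adjusted p-value under 0.05 and log2FC beyond 0.1) and 0.488% of 14953 in the microglia (under 0.1 and beyond 0.1). At an unadjusted p under 0.05, 1 of the 7 members stood in the PFC (Gabra5, against 7.64% of all genes) and 1 in the co-culture (Gabrd, against 13.2%). DESeq2's Wald test with no further factor called 0 members in each experiment as well. With a factor for unwanted variation (RUVs), DESeq2 called Gabra5 lower in the PFC (log2FC -0.21, adjusted p = 0.0602). In edgeR with that factor Gabra5 stood at -0.197 (adjusted p = 0.0992), short of the limit on the log2FC of 0.2.

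Among the alpha subunits in the PFC, Gabra5 was measured at 62.2, 57.6 and 60.9 CPM in the mice with anti-miR-99b and at 69.7, 68.2 and 68.7 CPM in those with sc-control. The groups did not overlap, which held for 13.3% of all genes tested in the PFC. The log2FC was -0.19 (SE 0.064, 95% interval -0.34 to -0.05, unadjusted p = 0.0130, edgeR adjusted p = 0.587). Gabra3, found in forebrain receptors, was measured at 164.5, 179.9 and 183.2 CPM with anti-miR-99b and at 200.3, 185.9 and 190.8 CPM with sc-control. These groups did not overlap either, but the nearest libraries were 183.2 and 185.9 CPM, and the log2FC was -0.13 (SE 0.068, edgeR adjusted p = 0.664). Gabra2, a synaptic alpha subunit, was measured at 42.96, 47.8 and 58.3 CPM with anti-miR-99b and 54.8, 49.7 and 60.3 CPM with sc-control, and the groups overlapped. Its log2FC was -0.14 (SE 0.11, adjusted p = 0.747). With 1 library left out the log2FC of Gabra2 ran from -0.28 (without treated mouse 3) to -0.05 (without treated mouse 1), that of Gabra3 from -0.16 to -0.08 (the same mice) and that of Gabra5 from -0.21 to -0.16, and none was called.

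For the beta subunit Gabrb2 the PFC libraries gave 99.4, 87.5 and 114.8 CPM with anti-miR-99b and 105.6, 119.5 and 111.9 CPM with sc-control, with a log2FC of -0.16 (SE 0.098, edgeR adjusted p = 0.689). Gabrd gave 68.8, 76.8 and 69.0 CPM against 81.8, 79.1 and 66.5 CPM, with a log2FC of -0.08 (SE 0.090, adjusted p = 0.823). In both genes the lowest control lay within or below the values of the treated mice, so the groups overlapped. The 95% intervals of the log2FC were wide and reached from -0.38 to 0.06 for Gabrb2 and from -0.28 to 0.12 for Gabrd. With 1 library left out Gabrb2 ran from -0.27 (without treated mouse 3) to -0.07 (without treated mouse 2) and Gabrd from -0.17 (without control mouse 4) to -0.025 (without control mouse 2), and neither was called.

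**Figure D2:**
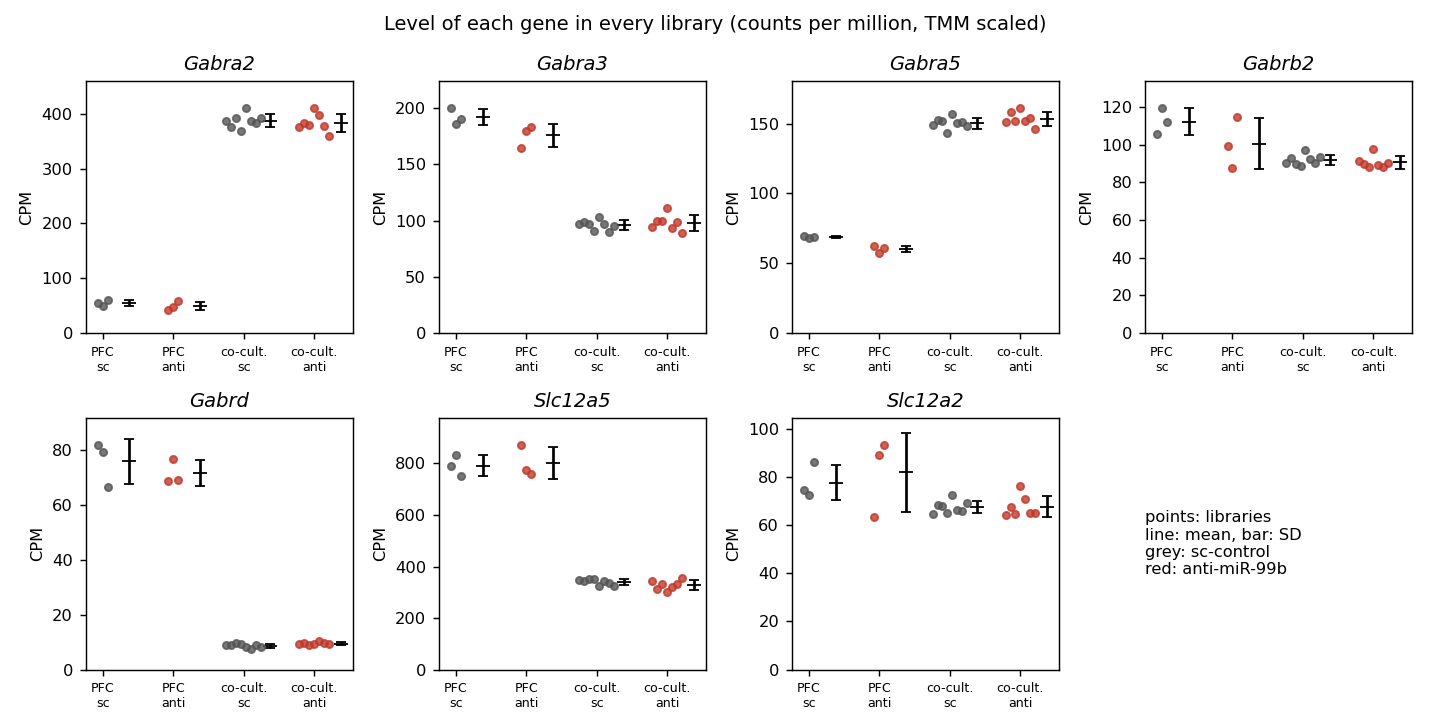
Level of each of the 7 genes (y axis, CPM, from 0) in every library of the 4 groups of the PFC and the co-culture (x axis), with mean and SD beside the points. Gabra5 in the PFC has its 3 treated libraries between 57.6 and 62.2 CPM, below the 3 controls from 68.2 to 69.7 CPM, and in the co-culture the groups overlap for each gene.

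In the co-culture the alpha and beta subunits of treated and control libraries overlapped and lay close together. Gabra2 ranged from 359.8 to 410.0 CPM (median 379.4) with anti-miR-99b and from 369.4 to 410.8 CPM (median 387.2) with sc-control, a log2FC of -0.01 (95% interval -0.07 to 0.04). Gabra3 ranged from 89.3 to 111.7 CPM (median 99.1) against 89.8 to 103.0 CPM (median 97.0), a log2FC of 0.03 (interval -0.05 to 0.10). Gabra5 ranged from 146.4 to 161.2 CPM (median 152.2) against 143.0 to 156.6 CPM (median 151.0), a log2FC of 0.03 (interval -0.02 to 0.08). Gabrb2 ranged from 88.0 to 97.9 CPM (median 89.9) against 88.9 to 97.3 CPM (median 91.5), a log2FC of -0.02 (interval -0.07 to 0.03). Adjusted p-values of these 4 genes lay between 0.650 (Gabra5) and 0.866 (Gabra2, edgeR).

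Gabrd was the member furthest from 0 in the co-culture. Its libraries ranged from 9.03 to 10.4 CPM (median 9.33) with anti-miR-99b and from 7.42 to 9.75 CPM (median 8.90) with sc-control, and they overlapped. The log2FC was 0.12 (SE 0.054, 95% interval 0.01 to 0.24, unadjusted p = 0.0297, edgeR adjusted p = 0.309), on 195 to 338 reads per library, so the change did not pass the test. Groups that did not overlap were 0.58% of the genes of the co-culture, and none of the 7 members was among them.

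**Figure D3:**
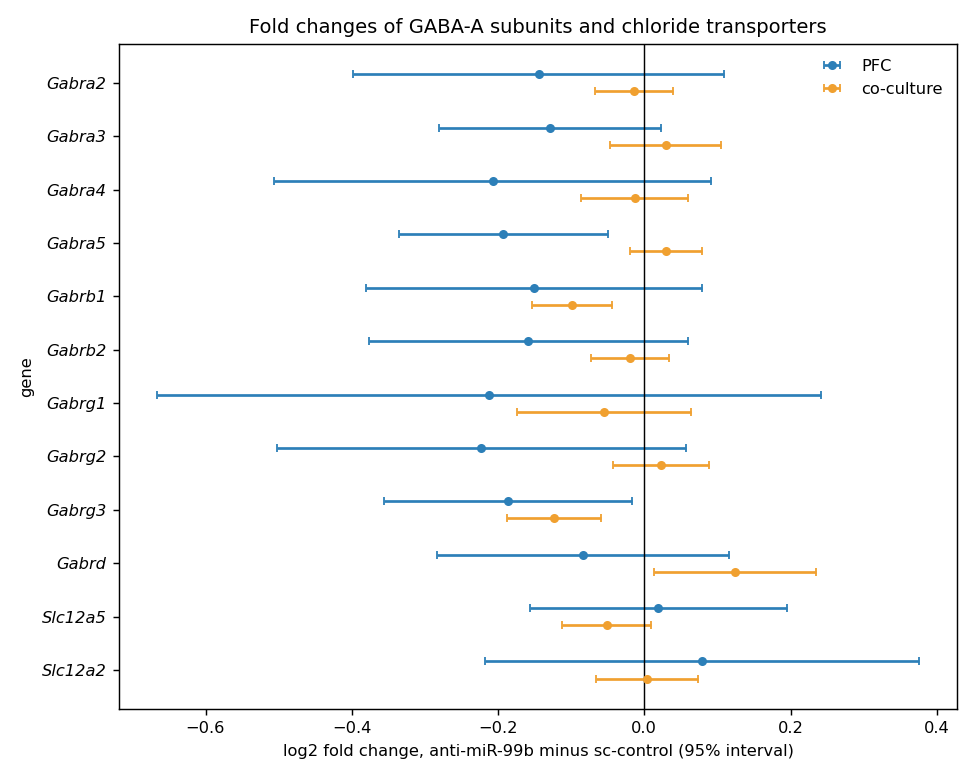
Log2 fold change of anti-miR-99b minus sc-control (x axis, with 95% interval) for 10 GABA-A subunit genes and the 2 chloride transporters (y axis) in the PFC and the co-culture. The PFC values of the 10 subunits shown lie below 0 with wide intervals, and those of the co-culture lie between -0.12 (Gabrg3) and 0.12 (Gabrd). Of 14 subunit genes tested in the PFC 13 had a lower mean, and the 1 with a higher mean is not among those shown.

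The chloride exporter Slc12a5 was measured at 872.1, 773.9 and 758.7 CPM in the PFC with anti-miR-99b and at 789.0, 833.9 and 750.2 CPM with sc-control. The treated mice covered the range of the controls, and the log2FC was 0.02 (SE 0.079, 95% interval -0.16 to 0.19, edgeR adjusted p = 0.961). In the co-culture it ranged from 301.6 to 355.7 CPM (median 330.4) against 323.1 to 350.1 CPM (median 344.3), a log2FC of -0.05 (SE 0.029, interval -0.11 to 0.01, adjusted p = 0.476). The importer Slc12a2 was measured at 63.2, 89.2 and 93.3 CPM in the PFC with anti-miR-99b and at 74.5, 72.3 and 85.9 CPM with sc-control, so that the lowest and the highest library were both from treated mice. Its log2FC was 0.08 (SE 0.13, interval -0.22 to 0.38, adjusted p = 0.889). In the co-culture Slc12a2 ranged from 64.1 to 76.2 CPM (median 65.0) against 64.6 to 72.4 CPM (median 67.0), a log2FC of 0.00 (interval -0.07 to 0.07).

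The ratio of importer to exporter, as log2 of Slc12a2 over Slc12a5 in counts per kb of exon, needs no scaling between libraries. In the PFC it was -4.34, -3.67 and -3.58 with anti-miR-99b and -3.96, -4.08 and -3.68 with sc-control, which for the lowest library is 4.94% and for the highest 8.39% of importer per exporter. The groups differed by 0.04 on the log2 scale (exact permutation test, two-sided, p = 0.8, where 3 against 3 allow no p below 0.1). In the co-culture it ranged from -3.01 to -2.54 (median -2.90) with anti-miR-99b and from -2.98 to -2.71 (median -2.91) with sc-control, a difference of 0.06 (exact permutation test, two-sided, p = 0.455). Within sequencing lanes the difference was 0.01 and 0.10 in the PFC and ran from -0.05 to 0.39 in the 4 lanes of the co-culture, the latter in a lane with 1 library of each group. Between the experiments, the sc-control co-culture stood at -2.89 ± 0.0943 (SD, n = 8) and the sc-control PFC at -3.90 ± 0.206 (SD, n = 3). The difference of 1.02, a 2.03-fold higher ratio in the co-culture, had an exact permutation p of 0.0121, two-sided, the smallest that 8 against 3 libraries allow, and 0.0364 when adjusted over the 3 comparisons of the ratio. Strain, age and tissue or culture differ together between these libraries, so the p-value says only how fully they separate. Microglia, which hold Slc12a2 and little Slc12a5, are part of the value on both sides (those cultured alone stood at 5.67 ± 0.280 with sc-control, n = 4). Their 15 markers summed to 204.3 to 253.8 CPM in the sc-control co-culture and to 728.4 to 1029 CPM in the sc-control PFC. In RPKM, Slc12a2 in the co-culture stood at 0.869 of its PFC level, and Slc12a5 was 2.33-fold higher in the PFC. Markers of other glia differed too. Astrocyte markers summed to 2703 to 2917 CPM in the sc-control co-culture and 4500 to 5021 CPM in the sc-control PFC. Oligodendrocyte markers summed to 67.4 to 77.6 CPM and 6138 to 6656 CPM in the same order. Oligodendrocyte precursor markers lay the other way, at 458.1 to 496.5 CPM and 336.4 to 348.6 CPM. How much of the ratio microglia or other cells account for was not tested.

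**Figure D4:**
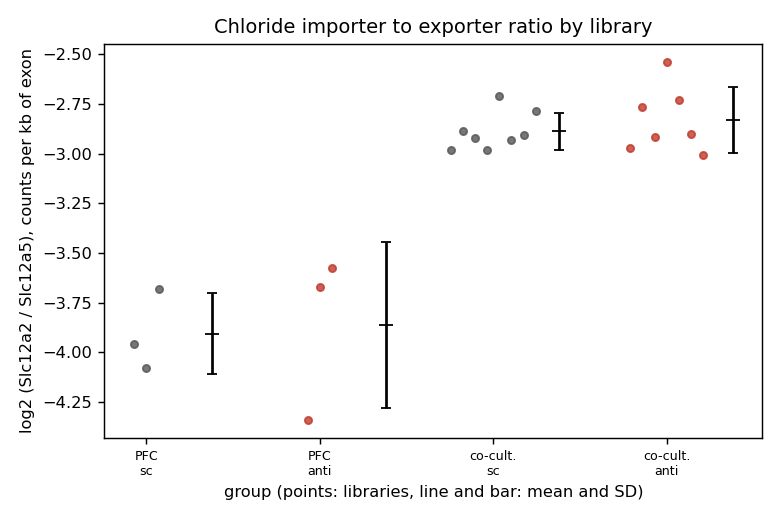
Log2 ratio of Slc12a2 to Slc12a5 in counts per kb of exon (y axis) by library in the 4 groups (x axis), with mean and SD. The co-culture libraries, from -3.01 to -2.54, lie above those of the PFC, from -4.34 to -3.58, and treated and control libraries overlap in both experiments.

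Slc12a5, Slc12a2 and the alpha and beta subunits moved from library to library with the GC slope of the library. The slope is how strongly a library's deviations from its group's mean rise with the GC content of transcripts, and it ran from -0.124 to 0.102 log2 units per 10 GC points in the 15 co-culture libraries and from -0.139 to 0.139 in the PFC. Slc12a5 has the highest GC content of the members (58.3%) and Gabra2 the lowest (38.4%). Over the 15 co-culture libraries, as deviations from the group mean, Pearson's r with the slope was 0.93 for Slc12a5, -0.95 for Gabra2, -0.90 for Slc12a2 (44.2% GC), -0.84 for Gabra5, -0.80 for Gabra3 and -0.72 for Gabrb2, and 0.12 for Gabrd. The genes share the library and its scaling, so these values describe the libraries. Slc12a5 and Slc12a2 opposed each other over the 15 libraries (r = -0.82, Spearman's rho = -0.76, r = -0.76 without the 2 libraries farthest out), and with the GC trend of each library removed r was -0.07. Gabra2 and Slc12a5 went from -0.84 to 0.30. In the PFC the treated mouse with the highest Slc12a5 and lowest Slc12a2 was the library with the slope of 0.139, and the treated mouse with the lowest Slc12a5 and highest Slc12a2 was the library with the slope of -0.139. The trend that was removed, unlike the slope, was taken from deviations from each gene's mean over all libraries of the experiment. A difference between treated and control libraries that goes with GC content was therefore removed too. Removing the trend was an alternative chosen after the data were seen. It changed the call of none of the 7 members. In the PFC it took Gabra2 from -0.14 to -0.02, Gabra3 from -0.13 to -0.06 and Gabra5 from -0.19 to -0.17. It also took Gabrb2 from -0.16 to -0.10, Gabrd from -0.08 to -0.13, Slc12a2 from 0.08 to 0.13 and Slc12a5 from 0.02 to -0.05. In the co-culture it left Slc12a5 at -0.05 with an SE of 0.015 and an edgeR adjusted p of 0.0477, short of the limit on the log2FC of 0.1.

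**Figure D5:**
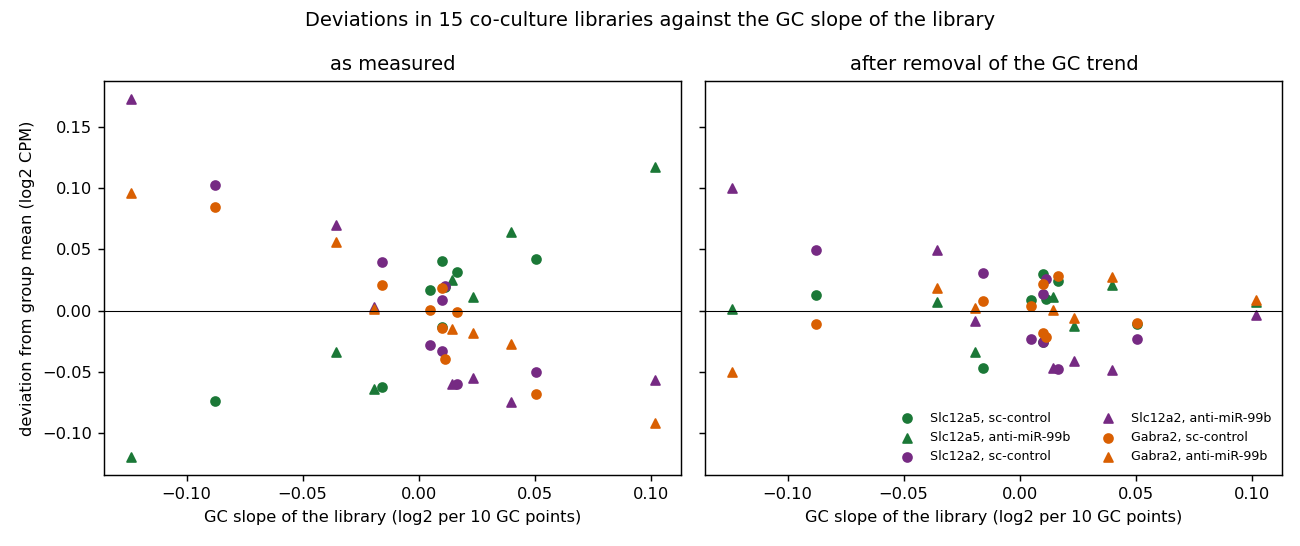
Deviation of Slc12a5, Slc12a2 and Gabra2 from their group mean (y axis, log2 CPM) in each of the 15 co-culture libraries against the GC slope of the library (x axis, log2 per 10 GC points), as measured and after removal of the GC trend. Slc12a5 rises with the slope (r = 0.93) and Gabra2 and Slc12a2 fall with it (r = -0.95 and -0.90), and the SD of the deviations of Slc12a5 goes from 0.0615 to 0.0220 after removal.

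Likeness of pattern was measured as Pearson's r of these deviations over the 15 co-culture libraries against 10019 other genes with a mean of 10 CPM or more. Zfp266 (r = 0.96) and Lrrc40 (0.95) were the 2 genes most like Gabra2. Those most like Gabra3 were Fam19a1 (0.93), Me1 (0.92) and Mmd (0.92), and those most like Gabra5 were Zfp770 (0.94), Gda (0.92) and Cd24a (0.92). Gabrb2 was most like Gm16185 (0.89), Cpsf2 (0.89) and Scn2a (0.88), Slc12a5 most like B4galnt1 (0.96), Sdc3 (0.96) and Eif4h (0.96), and Slc12a2 most like Pcmtd1 (0.96), Mapk8 (0.95) and Dzip3 (0.95). Gabrd fell under the level limit. The GC slope of the library, given above, moves with these values, and its part in them was not tested.

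The rest of the pathway was taken by list. Of the 19 GABA-A subunit genes, 14 passed the filter on low counts in the PFC, and the mean of 13 of them was lower with anti-miR-99b, with a median log2FC of -0.16 against 0.00 over all genes, of which 49.4% were lower. None was called. The smallest p-values included those of Gabra5 and Gabrg3 (-0.19, edgeR adjusted p = 0.648). With the GC trend removed 13 of 14 still had a lower mean and the median was -0.10, and without treated mouse 1 the median was -0.07 with 12 of 14 lower. In the same libraries the 15 microglia markers had a higher mean in 14, with a median log2FC of 0.36 and 0 called, and they summed to 994.8 to 1098 CPM with anti-miR-99b and 728.4 to 1029 CPM with sc-control. Neuron markers summed to 12727 to 14226.7 CPM against 13586.2 to 13972.5 CPM, and the part of cell makeup in the subunit values was not tested. The comparison with neuron markers as the library size left 13 of 14 lower, with a median of -0.13. All genes had a median of 0.03 in that comparison, and 40.6% of them were lower. Such a scaling shifts all genes of a library alike, so it does not measure the part of cell makeup.

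In the co-culture 13 subunit genes were tested, 7 with a lower mean and a median log2FC of -0.01. Gabrg3, a gamma subunit, fell by 0.12 on the log2 scale (SE 0.031, edgeR adjusted p = 0.0406), from 43.5 ± 2.05 CPM (SD, n = 8) with sc-control to 39.9 ± 1.13 (SD, n = 7). That call held in 3 of 15 comparisons that left out 1 library (those without anti-miR-99b replicate 5 or 7 or sc-control replicate 11), and the lane block ended it too. Gabrb1 stood next at -0.10 (adjusted p = 0.0619). It was called in 4 of 12 other fits (DESeq2, the RUVs factor, which stands for unwanted variation, in edgeR and in DESeq2, and the GC trend removed) and in 3 of 15 that left out 1 library (anti-miR-99b replicate 7, sc-control replicate 1 or 11), and since it overlaps Gabra4 on the other strand the 2 genes may share reads. Microglia markers were called higher in 9 of 15 here (median log2FC 0.31, summed 244.5 to 283.4 CPM against 204.3 to 253.8 CPM), while neuron markers summed to 10214.9 to 10407.9 CPM against 10187.9 to 10441.1 CPM.

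Of the 9 cation-chloride cotransporters, which include both transporters above, 8 were tested in the PFC and 7 had a higher mean (median log2FC 0.09, 0 called), led by Slc12a3 (0.75, on a mean of 0.832 CPM, edgeR adjusted p = 0.606), Slc12a7 (0.25) and Slc12a4 (0.17, both 0.649). In the co-culture 6 of 7 had a lower mean and 0 were called, with Slc12a5 and Slc12a9 (-0.05) among the smallest p-values. Of the 8 kinases and partners that act on the transporters, 0 were called in the PFC (2 higher and 6 lower in mean, led by Wnk3 at -0.21, Oxsr1 at -0.12 and Cab39l at -0.13). In the co-culture Wnk1, the kinase that senses chloride and acts through Stk39 and Oxsr1, fell by 0.11 on the log2 scale (SE 0.022, edgeR adjusted p = 0.00747), from 211.2 ± 5.57 CPM to 195.3 ± 4.97 CPM. That call held in all 15 comparisons that left out 1 library. Wnk2 (-0.11, adjusted p = 0.227) and Cab39l (0.08) followed and were not called. Wnk2 was called with the RUVs factor in edgeR and in DESeq2, with the GC trend removed and without anti-miR-99b replicate 12.

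Genes of GABA synthesis and transport showed a lower mean in 9 of 10 in the PFC (median log2FC -0.10, 0 called), led by Slc38a1 (-0.16, edgeR adjusted p = 0.649), Gad1 (-0.13), which makes GABA, and Aldh5a1 (-0.13). In the co-culture 6 of 8 had a lower mean and 0 were called, led by Slc38a1 (-0.06), the astrocyte GABA transporter Slc6a11 (-0.06) and Abat (-0.03), which breaks GABA down. The metabotropic GABA-B receptor genes had a lower mean in 5 of 6 in the PFC and 4 of 6 in the co-culture, with 0 called in each. The smallest p-values belonged to Kctd8 (-0.36), Kctd12 (-0.26) and Kctd12b (-0.21) in the PFC and to Gabbr2 (-0.06), Kctd12b (0.10) and Gabbr1 (-0.02) in the co-culture. Among 16 tested genes of receptor scaffold and assembly, 9 had a lower mean in the PFC and 11 in the co-culture, with 0 called. The smallest p-values included those of Gabarapl2 (-0.17) and Gabarapl1 (-0.11) in the PFC, and those of Mdga1 (-0.09), Shisa7 (-0.07) and Trak1 (-0.06) in the co-culture. Of the 9 other marker lists, 0 of 73 tested genes were called in the PFC and 1 of 67, higher, in the co-culture. That gene was the neuronal enolase Eno2 (log2FC 0.14, edgeR adjusted p = 0.0197).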

How the data were processed

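RNA-seq of 3 mouse experiments was compared between anti-miR-99b and sc-control within each experiment. The authors prepared TruSeq v2 libraries, sequenced single reads of 50 bases, aligned them with STAR 2.5.2b to mm10, counted with featureCounts 1.5.1 (bcl2fastq 2.20.2 and FastQC 0.11.5 are also named in the submitters' processing notes) and deposited raw counts per gene. The annotation release and strand setting are not given in the sources used here. Groups, and replicate and lane numbers, come from labels and library names, and 0 columns were left without a sample. Symbols, lengths and coordinates are from GENCODE M21 (GRCm38), with GC content from the longest transcript. Libraries of a group differed beyond sampling noise (chi-square per degree of freedom at least 1.48), so none was counted as a copy.

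In R 4.3.3, edgeR 4.0.16 (filterByExpr, TMM, quasi-likelihood test, no covariate) was used per experiment with the thresholds stated, and intervals are 95%. The study used DESeq2 with a RUVSeq factor, here alternatives (DESeq2 1.42.0, RUVs written out). Single values were compared by exact permutation (scipy 1.17.1). The pipeline was tested on simulated data. The alternatives were other normalizations and filters, RUVs, lane, replicate block, thresholds, neuron markers as library size, each library left out and, chosen after the data were seen, removal of each library's GC trend and a crossed block. Members and lists were chosen with earlier results of these data known. Genes named are the 7 members, list genes called or with the 3 smallest p per list and experiment, and the 3 most like each member. Some genes that this rule names are not reported here. Gabrb1 and the marker Eno2 were named after their values were seen.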

Additional observations from a re-analysis of the deposited data

Results flagged for a closer look

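Of the groups of 4 to 8 libraries, 30 sets of values (each member, and the ratio of Slc12a2 to Slc12a5, in each group) were examined for a library that stood far from the others, and 2 were found. Chance alone marks about 1 in 20 such sets.

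Gabrb2 in the co-culture with anti-miR-99b was 97.9 CPM in replicate 7, against 88.0 to 91.5 CPM in the other 6 libraries. That library also had the lowest GC slope of the co-culture (-0.124), and the part of the slope in this value was not tested. Without it the log2FC of Gabrb2 was -0.04 and was not called.

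Slc12a2 in microglia with sc-control was 106.6 CPM in replicate 2, against 119.1 to 119.5 CPM in the other 3 libraries.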

How the results depend on the processing

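No member was called in the co-culture or the microglia under any alternative. In the PFC 1 was called under 4 alternatives. Gabra5 was called lower with DESeq2 and a RUVs factor (-0.21, adjusted p = 0.0602). Slc12a2 was called higher (1 member, log2FC 0.32) with the replicate block (adjusted p = 0.0580), with the crossed replicate block (adjusted p = 0.00291) and in the same 4 libraries with no block (adjusted p = 0.0694), settings that drop a library of each group (replicate 1 of anti-miR-99b, replicate 4 of sc-control). Libraries of the same replicate number had deviations with a correlation of -0.28 and 0.05 in the PFC and -0.01 to 0.05 in the co-culture. With 2 shared numbers in the PFC and 4 in the co-culture, these values cannot show whether the numbers pair the samples. The cause of these changes was not tested. Gabrg3 and Wnk1 were not called in the co-culture with the replicate block.

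The number of genes called moved widely. In the PFC, against 15, it was 84 with DESeq2, 25 with upper-quartile factors, 412 with no filter, 284 and 309 with the RUVs factor in edgeR and DESeq2, 77 with the lane block, 518 with the replicate block, 638 crossed, 315 in the same libraries unblocked, 34 without the GC trend, and 1 to 201 with 1 library left out (201 without sc-control replicate 4). In the co-culture, against 227, it was 520 and 436 with the RUVs factor, 121 with the lane block, 93 with the replicate block, 492 without the GC trend and 143 to 300 with 1 library left out. In the microglia, against 73, it was 40 with DESeq2, 167 with no filter, 160 with the RUVs factor, 249 with the replicate block and 2 to 409 with 1 library left out (409 without sc-control replicate 2).

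Directions near 0 reversed. In the PFC, Slc12a5 was -0.012 and -0.022 with the RUVs factor in edgeR and DESeq2, -0.0781 with the replicate block, crossed (-0.0781) or not, -0.0786 in the same libraries unblocked, -0.048 without the GC trend, and -0.042 to 0.059 with 1 library left out. Gabra2 was 0.0198 with the replicate block, 0.0218 crossed and 0.0253 in the same libraries unblocked. Slc12a2 ran from -0.025 to 0.24 with 1 library left out. In the co-culture, Slc12a2 was -0.0032 and -0.0052 with the RUVs factor, -0.053 with the replicate block and -0.024 to 0.019 with 1 library left out, Slc12a5 was 0.0062 with the replicate block, and with 1 library left out Gabra3 ran from -0.0012 to 0.052 and Gabra2 from -0.029 to 0.0011.

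The ratio of Slc12a2 to Slc12a5 differed by 0.40 (PFC) and -0.059 (co-culture) with the replicate block, by 0.16 and 0.05 without the GC trend, and by -0.10 to 0.28 and 0.01 to 0.08 with 1 library left out. Between the experiments it stayed at 0.93 to 1.13. Subunit genes with a lower mean numbered 12 to 13 (PFC) and 6 to 11 (co-culture, 11 without anti-miR-99b replicate 7) with 1 library left out. Per kb of coding sequence the sc-control PFC shares were 3.85% (Gabra2), 11.4% (Gabra3), 4.72% (Gabra5), 6.97% (Gabrb2) and 5.37% (Gabrd), and those of the co-culture 24.3%, 5.10%, 9.19%, 5.08% and 0.551%.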
